A study of Mus musculus with 4 samples.

Results

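The small nucleolar RNA (snoRNA) genes were taken as every row of the deposited table whose gene biotype is given as snoRNA, which gave 227 of 15466 rows. By symbol, 62 of them are Snord genes (box C/D class), 35 are Snora genes (box H/ACA class) and 130 have other names, 128 of these being LOC identifiers. The gene descriptions in the table place 118 of these 130, so that 124 rows in all are box C/D, 91 are box H/ACA and 12 have no class given. All 227 IDs carry the snoRNA biotype in RefSeq for GRCm38.p6 as well. The libraries came from spleen CD8 T cells of C57BL/6 mice, enriched on anti-CD8 microbeads and then sorted by flow cytometry. Virtual memory (VM) cells were CD44hi and CD49d-, and naive cells were CD44- and CD49d-. VM cells look like memory CD8 T cells, form without known encounter of foreign antigen and respond strongly to IL-15. The groups were IL-15C VM and IL-15C naive cells, from mice given a complex of IL-15 with IL-15Ra on 4 occasions a week, and control VM and control naive cells, from wild-type mice given PBS on the same schedule. There was 1 library for each of the 4 groups, the titles give 3 mice per group, and whether their cells were pooled is not stated. Cd44, the gene of the sorted marker, was at 243 CPM in IL-15C VM cells, 17.2 in IL-15C naive cells, 232 in control VM cells and 8.65 in control naive cells, and Cd8a was at 1050, 1603, 1168 and 1396 CPM in the same order. Itga4, which encodes CD49d, was at 50.9, 290, 351 and 614 CPM in that order. The sources used here give neither the age of the mice nor the number of weeks of treatment. With 1 library per group no difference could be tested against the spread between mice, and every interval below is a 95% interval of counting error only.

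SnoRNAs are short nuclear RNAs that guide chemical changes of other RNAs, above all ribosomal RNA. Box C/D snoRNAs are bound by fibrillarin and direct 2′-O-methylation, and box H/ACA snoRNAs are bound by dyskerin and direct the change of uridine to pseudouridine. A few, such as U3, U8, U14 and U17, are needed to cut the ribosomal RNA precursor. In mammals most are cut out of introns of host genes, many of which encode ribosomal proteins or translation factors, or are non-coding RNAs such as Gas5 and the Snhg genes. A mature snoRNA has no poly(A) tail, and the libraries were made from poly(A) RNA with a kit that keeps strand. Reads on a snoRNA row can therefore also come from unspliced host RNA or from host transcripts that keep the intron, and the counts cannot tell these apart from the mature snoRNA.

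Sequences are shown for members that carry the main difference and for members that did not follow it. They are GENCODE M21 transcripts on GRCm38, given as the RNA strand in DNA letters, and their ends can differ by some bases from those of the deposited rows. The first 4 are of the box C/D class and capitals mark a C box (NTGATGA, searched in the first 20 bases) and a D box (CTGA, searched in the last 15 bases). LOC115487677, described as SNORD78, is at chr1:161036984-161037049 on the plus strand and LOC115487644, described as SNORD44, at chr1:161036682-161036741 on the plus strand, both inside Gas5. Snord14a, a copy of U14, is at chr7:116333171-116333257 on the minus strand in Rps13. Snord16a is at chr9:64175423-64175521 on the plus strand in Rpl4.
LOC115487677: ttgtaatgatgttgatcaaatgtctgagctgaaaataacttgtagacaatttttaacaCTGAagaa
LOC115487644: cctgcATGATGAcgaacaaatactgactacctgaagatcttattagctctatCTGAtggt
Snord14a: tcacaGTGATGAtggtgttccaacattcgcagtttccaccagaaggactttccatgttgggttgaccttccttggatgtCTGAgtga
Snord16a: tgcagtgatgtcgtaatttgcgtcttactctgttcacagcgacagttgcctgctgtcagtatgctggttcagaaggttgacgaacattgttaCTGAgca

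The next 4 are of the box H/ACA class and capitals mark the ACA box (ACA, searched in the last 10 bases). Snora65 is at chr2:32963291-32963420 on the plus strand in Rpl12. LOC115488689 at chr16:23111301-23111429 and LOC115488690 at chr16:23110383-23110507, both on the plus strand in Eif4a2, are described as SNORA63. The pair was identical at 92 aligned bases, or 71.3%. Snora73b, a copy of U17, is at chr4:132352322-132352526 on the minus strand in Rcc1.
Snora65: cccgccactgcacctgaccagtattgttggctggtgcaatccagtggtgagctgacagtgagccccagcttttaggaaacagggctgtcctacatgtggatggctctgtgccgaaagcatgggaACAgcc
LOC115488689: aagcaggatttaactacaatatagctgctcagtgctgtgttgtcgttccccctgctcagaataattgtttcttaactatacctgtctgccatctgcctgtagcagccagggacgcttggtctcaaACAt
LOC115488690: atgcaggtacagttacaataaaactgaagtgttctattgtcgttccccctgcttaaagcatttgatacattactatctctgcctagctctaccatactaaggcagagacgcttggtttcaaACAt
Snora73b: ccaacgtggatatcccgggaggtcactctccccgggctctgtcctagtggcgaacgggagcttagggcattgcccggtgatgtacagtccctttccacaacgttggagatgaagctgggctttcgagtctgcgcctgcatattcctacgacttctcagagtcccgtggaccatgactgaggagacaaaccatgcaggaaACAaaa

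A sequence was found for 222 members, and the boxes were searched on the RNA strand only. Among the 122 members described as box C/D, the D box letters were present in 91.8% and those of both boxes in 59.0%. Among the 90 described as box H/ACA, the ACA letters were present in 95.6% and the D box letters in 4.44%. For scale, of 1500 annotated GENCODE snoRNA genes of the same range of lengths, 31.3% held the D box letters, 20.1% those of both boxes and 47.5% the ACA letters. The letters of the descriptions and of the sequences thus went together for most members. The C box letters were not in the searched window of LOC115487677 or Snord16a.

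Reads on snoRNA rows were few and were fewest in IL-15C VM cells. Over the 227 rows there were 2427 reads in IL-15C VM cells, 5741 in IL-15C naive cells, 6556 in control VM cells and 7299 in control naive cells, out of 45289920, 45649628, 43862816 and 48950547 reads in the table for those libraries in the same order. That is 0.00536% of the reads in IL-15C VM cells (exact binomial interval 0.00515 to 0.00558), 0.0126% in IL-15C naive cells, 0.0149% in control VM cells and 0.0149% in control naive cells. As CPM after TMM scaling, the class summed to 56.6 in IL-15C VM cells, 126.3 in IL-15C naive cells, 146.3 in control VM cells and 143.5 in control naive cells. The authors' TPM, which divides by gene length, summed to 994 in IL-15C VM cells, 2347 in IL-15C naive cells, 3045 in control VM cells and 3092 in control naive cells. The IL-15C VM library stood apart on each of these scales, and both control libraries were close to each other. A member had a median of 43 reads over the 4 libraries, with a range of 4 to 1022, and 155 of the 227 had at least 20. Of those 155, 120 had their lowest CPM in the IL-15C VM library, a count that was not made over all rows. The table lists only rows with at least 1 read in every library, and a snoRNA with none in some library was not analysed here.

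Per length, the member with the highest mean level was LOC115487677 in Gas5, with 27.3 TPM in IL-15C VM cells, 133 in IL-15C naive cells, 177 in control VM cells and 135 in control naive cells. LOC115487638, a box C/D row of Gas5 described as SNORD24, had 36.3, 91.4, 121 and 119 TPM in the same order of libraries. Snora65 followed with 37.1, 70.2, 120 and 119 TPM. The highest Snord name was Snord96a in Rack1, with 36.0 TPM in IL-15C VM cells, 53.5 in IL-15C naive cells, 88.9 in control VM cells and 96.1 in control naive cells. In these 4 members the IL-15C VM library was the lowest. The 10 members with most reads together held 20.9% of snoRNA reads in IL-15C VM cells, 26.6% in IL-15C naive cells, 29.9% in control VM cells and 27.7% in control naive cells.

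**Figure D1:**
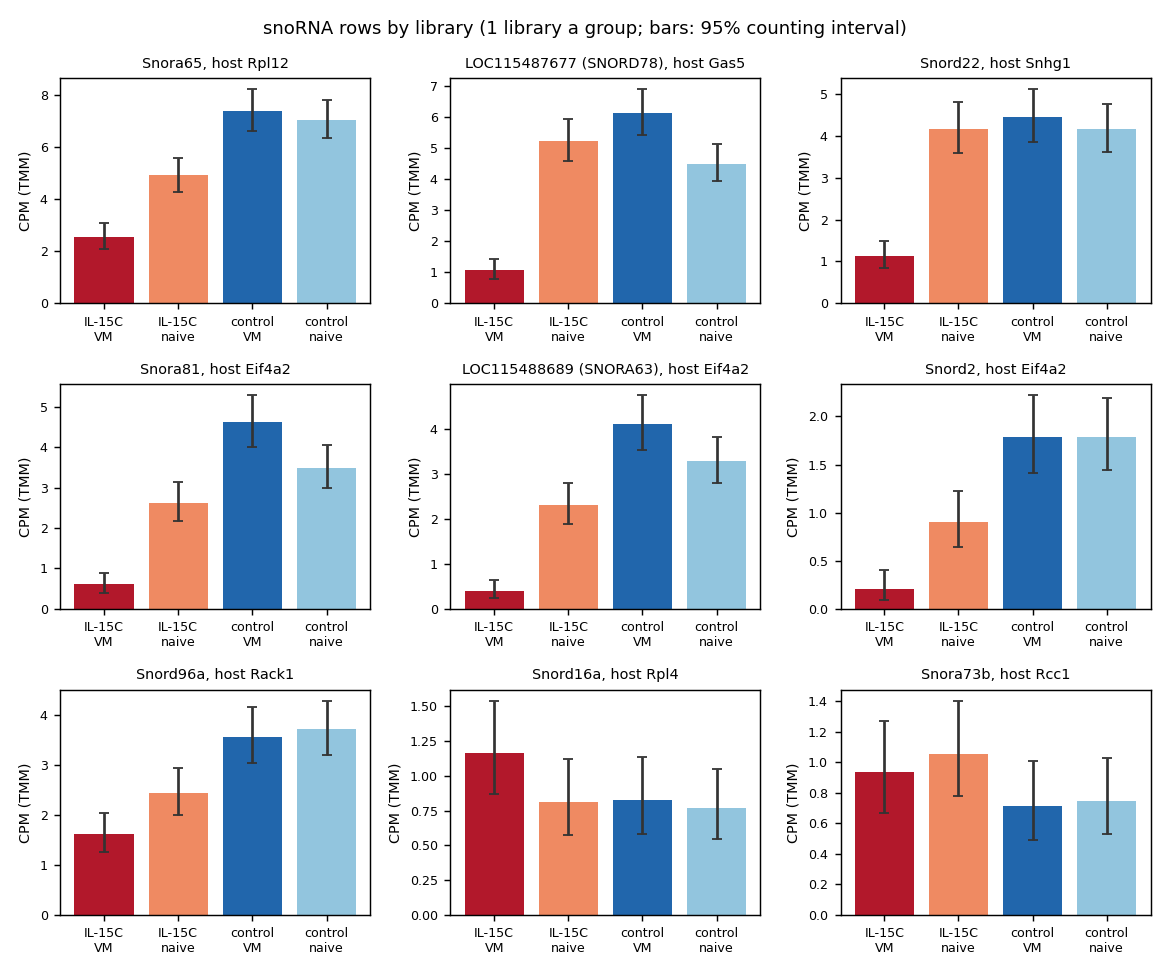
CPM after TMM scaling (y axis, linear, from 0) of 9 snoRNA rows in the IL-15C VM, IL-15C naive, control VM and control naive libraries, with exact 95% Poisson counting intervals and 1 library per bar. In 7 of the rows the IL-15C VM bar is the lowest, while Snord16a and Snora73b show overlapping intervals in all libraries.

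The comparison of IL-15C VM with control VM cells asks what IL-15C treatment did to the snoRNA rows of VM cells. The summed class was 2.58-fold lower in IL-15C VM cells, a log2 ratio of −1.37 (−1.44 to −1.30). A row was compared where the 2 libraries held at least 20 reads together and the higher one at least 1 CPM, and it was called where it differed at least 2-fold with its whole counting interval beyond 2-fold. Of 44 members compared, 25 were lower and 0 were higher. Of the 12370 rows compared in all, 8.83% were called lower and 8.6% higher. The median log2 ratio was −1.69 over the 44 members and −0.04 over all rows compared. A member can pass the 1 CPM limit through the control VM library alone. Without the CPM limit the median was −1.26 over 109 members and −0.06 over all rows. Of these members 29 were lower and 0 higher, where 8.42% of all rows were lower and 7.84% higher. Among all rows in the same range of reads as the snoRNA rows, 12.7% were lower. Of these 109 members, the interval lay wholly below 0 for 75 and wholly above 0 for 2. The same count was not made over all rows. In bulk samples such as these, fewer cells of a kind and less RNA per cell cannot be told apart.

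**Figure D2:**
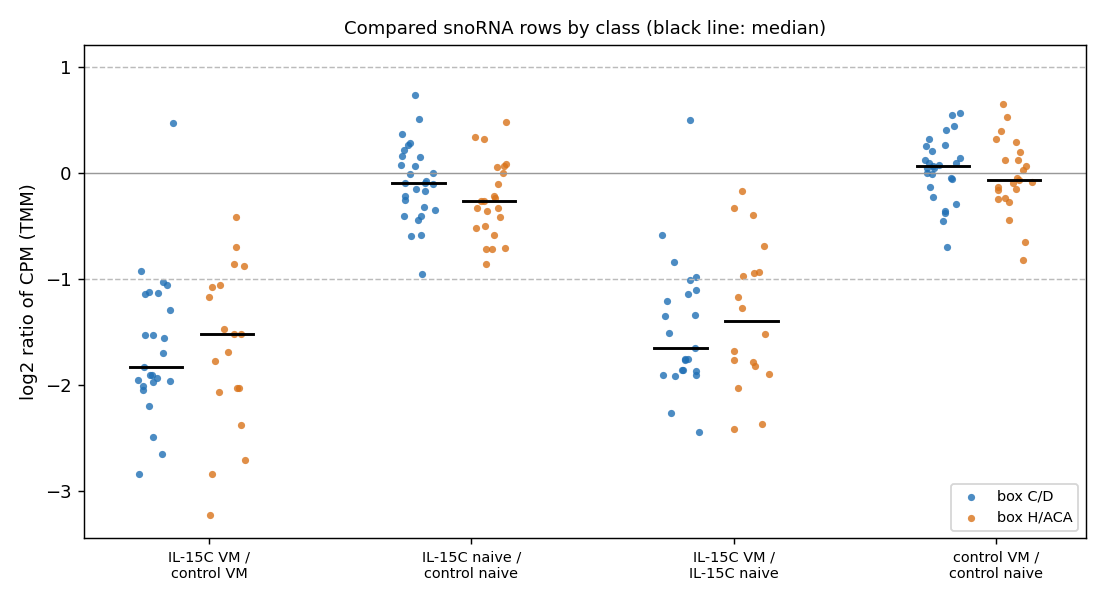
Log2 ratio of CPM (y axis) of the compared snoRNA rows in each of the 4 comparisons, split into box C/D and box H/ACA by description, with the median of each class as a black line and 2-fold as dashed lines. Both comparisons that hold the IL-15C VM library lie mostly below −1, and the other comparisons scatter around 0.

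Among box C/D members, those inside Gas5 and Snhg1 made up many of the calls. All rows of these hosts overlap an annotated exon, mostly of retained-intron transcripts only. LOC115487677 (SNORD78) had 45 reads in IL-15C VM cells and 274 in control VM cells, a log2 ratio of −2.49 (−3.03 to −2.08). LOC115487644 (SNORD44) had 31 and 140 reads (log2 −2.04), LOC115487638 (SNORD24) 75 and 235 reads (−1.56), and LOC115487643 (SNORD74) 11 and 60 reads (−2.20), each with IL-15C VM cells first. These are guides of ribosomal RNA methylation, and all 4 were called lower. LOC115487678 (SNORD75), with 17 reads in IL-15C VM cells and 55 in control VM cells, was at −1.53 and was not called, since its interval reached −0.82.

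In Snhg1, a non-coding gene named for its snoRNAs, Snord22 had 48 reads in IL-15C VM cells against 200 in control VM cells, a log2 ratio of −1.95 (−2.48 to −1.53). Snord22 encodes U22, a box C/D RNA known for its part in making the small subunit ribosomal RNA. Of the other 7 members in Snhg1, 6 were called lower, with log2 ratios of −1.70 (LOC115489084, SNORD26) to −2.65 (LOC115489087, SNORD31). LOC115489078 (SNORD25), at −1.13, was not called. All 8 Snhg1 members had intervals wholly below 0.

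Further box C/D members came from coding hosts. Snord2 in Eif4a2 had 9 reads in IL-15C VM cells and 80 in control VM cells, the lowest ratio of a Snord name at −2.84 (−4.27 to −2.09). Snord14a, the U14 copy of Rps13, had 19 and 84 reads (−1.97), and Snord100 of Rps12 had 22 and 94 reads (−1.94), again with IL-15C VM cells first. The remaining Snord names compared were not called lower. Snord96a had 69 reads in IL-15C VM cells and 160 in control VM cells (−1.13, interval −1.58 to −0.73). The 4 copies of U14 with 20 reads did not share a value, since Snord14d was at −1.03, Snord14e at −0.54 and Snord14c at 0.06, all in Hspa8. Snord14a and Snord14d are identical at 81.6% of aligned bases, and Snord14d and Snord14e at 82.2%.

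Among box H/ACA members the lowest ratios were in Eif4a2, which encodes a translation initiation helicase. LOC115488689 (SNORA63) had 17 reads in IL-15C VM cells and 184 in control VM cells, the lowest ratio of any member compared at −3.23 (−4.18 to −2.65). Its neighbour of the same description, LOC115488690, had 22 and 128 reads (−2.38), Snora81 had 26 and 207 reads (−2.84), and LOC115488691 (SNORA4) had 32 and 119 reads (−1.77), IL-15C VM cells first. With Snord2, all 5 snoRNA rows of Eif4a2 were called lower. Outside Eif4a2, Snora3 in Rpl27a had 7 reads in IL-15C VM cells and 59 in control VM cells (−2.70, interval −4.39 to −1.88). Snora65 in Rpl12, the member with most reads, had 109 reads in IL-15C VM cells and 331 in control VM cells (−1.52, interval −1.86 to −1.22). Snora33 of Rps12 (−2.07), Snora61 of Snhg12 (−2.03), LOC115487884 of Snhg15 (SNORA9, −2.03) and Snora31 of Tpt1 (−1.69) were also lower. These H/ACA members guide pseudouridylation. Each was at its lowest CPM in the IL-15C VM library, which the call against control VM cells partly fixed.

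Several abundant members were below 0 without being called, and the 3 given here were chosen after their values were seen. Snord104, a box C/D row for which the annotation gives no host on the same strand, had 56 reads in IL-15C VM cells, 108 in IL-15C naive cells, 113 in control VM cells and 141 in control naive cells, with a log2 ratio of −0.92 (−1.44 to −0.47) between IL-15C VM and control VM cells. Snora64 of Rps2 had 29, 92, 88 and 111 reads in the same order (−1.48, interval −2.20 to −0.92), and Snora28 of Eif5 had 46, 65, 90 and 70 (−0.88, interval −1.45 to −0.38). In each of them the IL-15C VM library had the fewest reads. Of the 44 members compared, 43 had a ratio below 0, and without the 1 CPM limit 100 of 109 did. Over all rows, 6458 of 12370 compared did, and 7435 of 13962 without that limit. The 72 members with under 20 reads over the 4 libraries could only be read as a sum, which was 138 reads in IL-15C VM cells, 176 in IL-15C naive cells, 211 in control VM cells and 214 in control naive cells. That sum had a log2 ratio of −0.55 (−0.87 to −0.23) between IL-15C VM and control VM cells.

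Some members did not follow. Snord16a in Rpl4 had 50 reads in IL-15C VM cells, 37 in IL-15C naive cells, 37 in control VM cells and 39 in control naive cells, and it was the 1 member of the 44 with a log2 ratio above 0 between IL-15C VM and control VM cells (0.48, interval −0.14 to 1.15). Snora73b had 40, 48, 32 and 38 reads in the same order, with a ratio of 0.37 (−0.32 to 1.10) between IL-15C VM and control VM cells, and Snora73a had 23, 29, 25 and 27 reads. These copies of U17 are 96.6% identical, so how reads were divided between them is uncertain. In all, 9 of the 109 members with 20 reads were above 0. The highest were LOC115488214 (SNORA2/SNORA34 family) in Cks2 with 20 reads in IL-15C VM cells and 7 in control VM cells (1.34, interval 0.28 to 3.06), and LOC115488830 (SNORD83) in Ddx39b with 17 and 6 reads (1.30, interval 0.16 to 3.20). Neither reached 1 CPM. Both were singled out after their values were seen.

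Other classical members had too few reads for a comparison. Snord118, which encodes U8, had 3 reads in IL-15C VM cells, 5 in IL-15C naive cells, 1 in control VM cells and 6 in control naive cells. Snord13, known in human cells to guide acetylation of the small subunit ribosomal RNA, had 4, 4, 8 and 8 reads, and Snora74a, a copy of U19, had 4, 6, 2 and 4 reads in the same order. U3 is listed in the table under snRNA and so was not a member. Its row Rnu3a had 9 reads in IL-15C VM cells, 40 in IL-15C naive cells, 41 in control VM cells and 76 in control naive cells, and Rnu3b1 had 29, 52, 30 and 58 reads in the same order.

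Both classes were lower in IL-15C VM than in control VM cells, and which class had the lower ratio depended on how the class was assigned. By symbol, 4 of 9 Snord rows and 6 of 12 Snora rows compared were lower, with medians of −1.13 and −1.50, and 15 of the 23 rows with other names were lower, with a median of −1.83. The summed reads had log2 ratios of −1.16 (−1.29 to −1.03) for Snord and −1.36 (−1.50 to −1.22) for Snora names. By description, 15 of 25 box C/D and 10 of 19 box H/ACA rows were lower, with medians of −1.83 and −1.52. Their summed reads had ratios of −1.42 (−1.51 to −1.33) and −1.31 (−1.42 to −1.21). Most Gas5 and Snhg1 members carry LOC identifiers and count as box C/D by description only. In this comparison the intervals of the classes overlapped under either assignment. By description they did not overlap in IL-15C VM over IL-15C naive cells, where box C/D rows summed to −1.27 (−1.36 to −1.17) and box H/ACA rows to −1.03 (−1.14 to −0.93), or in IL-15C naive over control naive cells, where the sums were −0.12 (−0.19 to −0.05) and −0.27 (−0.35 to −0.19). Both of these use the IL-15C naive library. Box C/D rows took 55.5% (53.5 to 57.5) of the classed reads in IL-15C VM cells, 59.5% (58.2 to 60.8) in IL-15C naive cells, 57.4% (56.2 to 58.6) in control VM cells and 56.9% (55.8 to 58.1) in control naive cells.

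**Figure D3:**
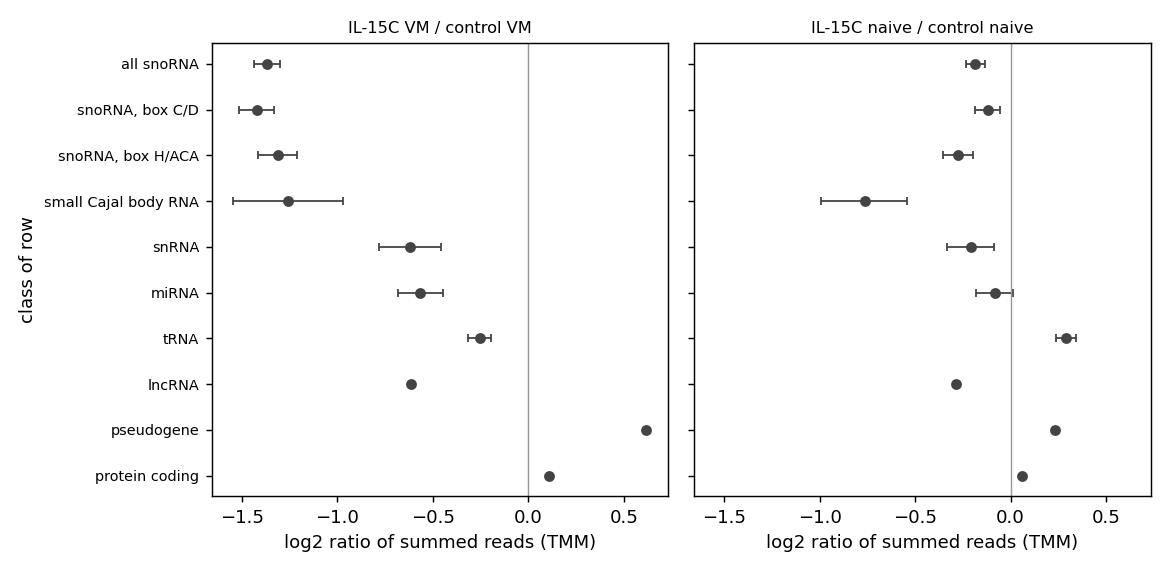
Log2 ratio of summed reads after TMM scaling (x axis) for snoRNA rows and for other classes of row (y axis), for IL-15C VM over control VM and for IL-15C naive over control naive cells, with 95% counting intervals. The snoRNA sum stands at −1.37 in VM cells and at −0.18 in naive cells, and protein-coding rows stand at 0.11 and 0.06.

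Within IL-15C mice, VM cells were set against naive cells, a comparison that shares the IL-15C VM library with the preceding one. The summed class was 2.23-fold lower in IL-15C VM cells (log2 −1.16, interval −1.23 to −1.09). Of 41 members compared, 20 were lower and 0 higher, where 5.91% of 12206 rows were lower and 6.52% higher. The median was −1.52 over the members and −0.01 over all rows. Without the CPM limit the median was −1.16 over 105 members. Of these 26 were lower and 0 higher, where 5.67% of all rows were lower and 5.97% higher. Among all rows in the range of reads of the snoRNA rows, 8.21% were lower. The lowest were LOC115489087 (SNORD31) with 9 reads in IL-15C VM cells and 61 in IL-15C naive cells (log2 −2.44), LOC115488689 (SNORA63) with 17 and 105 (−2.41), Snora33 with 9 and 58 (−2.37), LOC115487677 (SNORD78) with 45 and 237 (−2.26), Snora81 with 26 and 119 (−2.03) and LOC115489081 (SNORD29) with 22 and 94 (−1.92). By description 12 of 23 box C/D and 8 of 18 box H/ACA rows were lower, with medians of −1.65 and −1.40. Snora65, called against control VM cells, was at −0.94 (−1.29 to −0.61) against IL-15C naive cells and was not called.

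In naive cells IL-15C went with a small difference. The summed snoRNA reads had a log2 ratio of −0.18 (−0.23 to −0.13) in IL-15C naive over control naive cells. Of 51 members compared 0 were called in either direction, where 4.95% of all rows were higher and 1.99% lower, and the median was −0.17 beside 0.02 over all rows. Among 119 members with 20 reads the interval lay wholly below 0 for 17 and wholly above 0 for 2, a count not made over all rows. Snord2 was at −0.96, with 41 reads in IL-15C naive cells against 91 in control naive cells, and LOC115488690 was at −0.71. At the other end stood Snord14e at 0.74, with 61 reads in IL-15C naive cells against 40 in control naive cells. LOC115487677 was at 0.22 and Snord22 at 0.00. The difference between the VM and naive responses to IL-15C was not tested, since each rests on 1 library a group.

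In control mice VM and naive cells were alike on the sum, with a log2 ratio of 0.03 (−0.02 to 0.08). Of 50 members compared 0 were called, where 4.81% of all rows were higher and 1.11% lower. The member median was 0.04 and that of all rows 0.01. Of 128 members with 20 reads, the interval lay wholly below 0 for 4 and wholly above 0 for 8, again without a count over all rows. LOC115487677 was at 0.44 and Snora81 at 0.40. All 8 sequences printed above had CPM values in control VM and control naive cells that differed by less than 1.5-fold.

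A host gene that is itself in the table was found for 214 members, in 123 distinct genes. Between IL-15C VM and control VM cells, 6 of 121 hosts compared were higher and 5 lower, with a median of −0.03, where 8.6% of all compared rows were higher and 8.83% lower. For the 43 compared members with a host, the median of the member ratio minus the host ratio was −1.21, and 42 of the 43 lay below their host. The median member ratio was −1.70 and the median host ratio over these members −0.27. At 20 reads without the CPM limit the median difference was −1.07, with 100 of 108 members below their host. In IL-15C naive over control naive cells the median difference was −0.66 with 46 of 50 below, but there the median member ratio was −0.16 and the median host ratio 0.48, so most of the gap lay on the side of the hosts. In IL-15C VM over IL-15C naive cells the median difference was −0.80 with 34 of 40 below, at a median member ratio of −1.58 and a median host ratio of −0.72. In control VM over control naive cells it was 0.02 with 23 of 49 below. Across the 43 members, member and host ratios had a Pearson r of 0.50 and a Spearman rho of 0.52. This is across genes, of which several share a host and all share the same libraries.

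**Figure D4:**
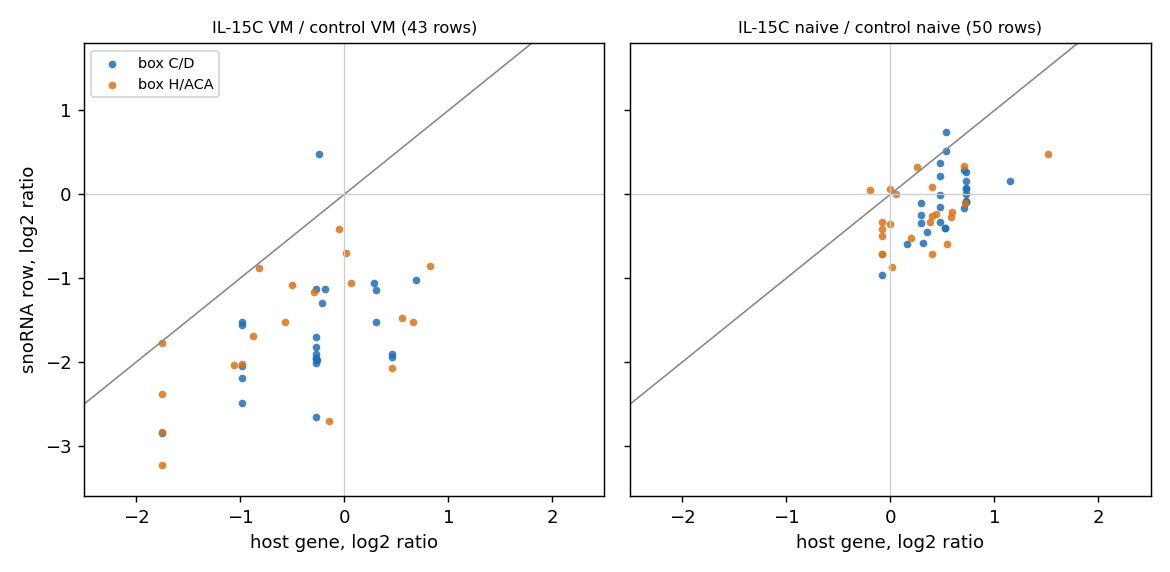
Log2 ratio of each compared snoRNA row (y axis) against that of its host gene (x axis) in IL-15C VM over control VM cells (43 rows) and in IL-15C naive over control naive cells (50 rows), with the line of equal ratios. In VM cells 42 rows lie below the line and in naive cells 46.

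Eif4a2 and its 5 snoRNA rows were both lower. Eif4a2 was at 186 CPM in IL-15C VM cells, 612 in IL-15C naive cells, 627 in control VM cells and 646 in control naive cells, a log2 ratio of −1.75 between IL-15C VM and control VM cells. Its snoRNA rows summed to 106, 462, 718 and 751 reads, a ratio of −2.70 (−3.00 to −2.40). Gas5 was at 98.0, 252, 194 and 181 CPM in the same order, a ratio of −0.98, and its 8 rows summed to 182, 657, 808 and 733 reads, a ratio of −2.09 (−2.33 to −1.85). Snhg1 was at 41.6, 87.4, 50.2 and 52.6 CPM, a ratio of −0.27, and its 8 rows summed to 178, 716, 727 and 776 reads, a ratio of −1.97 (−2.21 to −1.73). The interval of the snoRNA sum lay below the ratio of the host for all 3 hosts.

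In further hosts the rows had lower ratios while the host itself was not called. Rps12, a small subunit ribosomal protein gene, was at 1859 CPM in IL-15C VM cells and 1355 in control VM cells (log2 0.46), and its snoRNA rows summed to 54 and 236 reads (−2.06, interval −2.52 to −1.63). Eif4a1, the paralog of Eif4a2, was at 930 and 587 CPM (0.66), and its rows summed to 44 and 144 reads (−1.65, interval −2.17 to −1.15). Rpl7a was at 0.31 with its rows at −1.26, Rpl17 at −0.44 with its rows at −1.97, and Rack1 at −0.19 with its rows at −1.18. At the other end, the sum over the rows of Rpl4 was −0.58, of Rpl13a −0.66, of Hspa8 −0.64, of Nop56 −0.40 and of Rpsa −0.43. Snhg12, Rpl5, Rpl23a, Zfas1 and 2410006H16Rik, which also hold 3 or more rows of at least 20 reads, had row sums of −1.73 (Snhg12) to −0.77 (Zfas1). Rcc1, a regulator of nuclear transport, is the host of Snora73a and Snora73b. It was at 134 CPM in IL-15C VM cells and 28.8 in control VM cells (2.22). Host and snoRNA rows stood apart there, with the rows near 0.

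**Figure D5:**
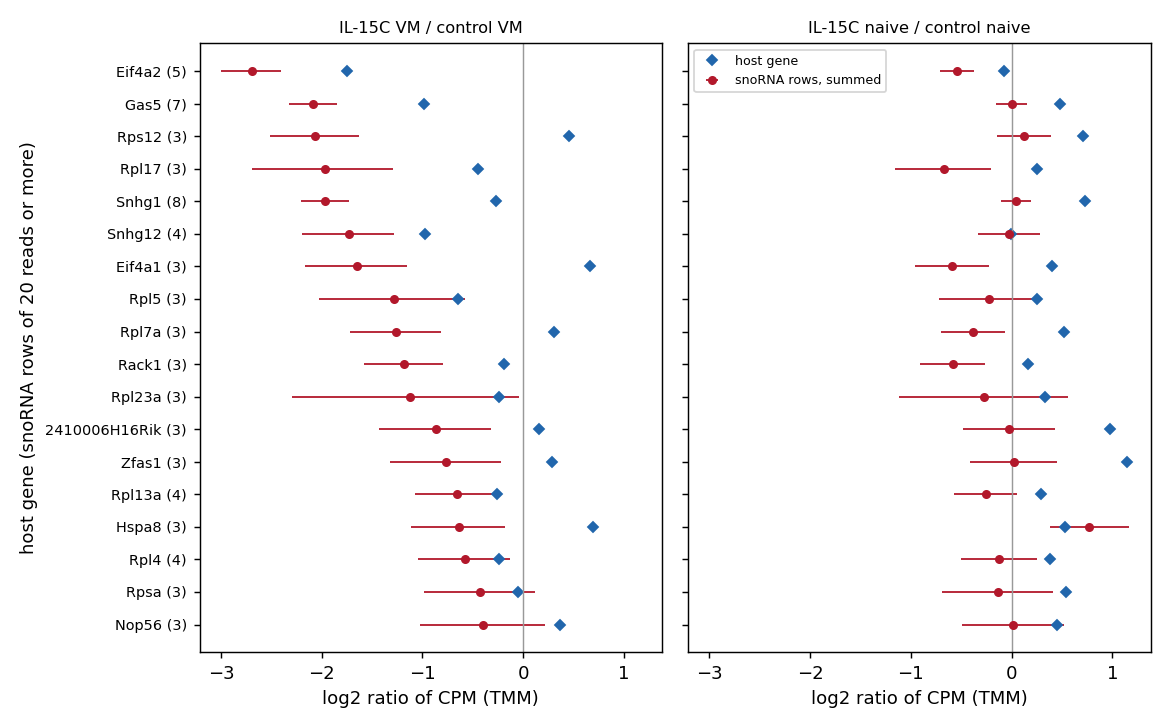
Log2 ratio of CPM (x axis) of host genes (diamonds) and of the sum of their snoRNA rows (circles, 95% counting interval) for the reported hosts with 3 or more rows of 20 reads (y axis, number of rows in brackets), in IL-15C VM over control VM and in IL-15C naive over control naive cells. The row sums lie below their host in each of the hosts shown in VM cells, from −2.70 in Eif4a2 to −0.40 in Nop56.

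By kind of host, the 44 members in non-coding hosts summed to a log2 ratio of −1.79 (−1.93 to −1.66) in IL-15C VM over control VM cells, with their hosts at −0.47. The 55 members in ribosomal protein genes summed to −1.30 (−1.42 to −1.18), with hosts at −0.17, and the 115 in other coding genes to −1.17 (−1.28 to −1.06), with hosts at 0.11. The 13 members with no host in the table had 94 reads in IL-15C VM cells and 153 in control VM cells and summed to −0.64 (−1.02 to −0.26). All 4 sums were below 0, with the lowest in non-coding hosts. Of the 587 reads of that kind in IL-15C VM cells and 2124 in control VM cells, Gas5 rows held 182 and 808. Snhg1 rows held 178 and 727. Their ratios were −2.09 (Gas5) and −1.97 (Snhg1), and the sum of the kind was not taken without them. The sum nearest 0 was in members with no host in the table. The sum of those 13 rests mostly on Snord104. It was the only 1 of them with 20 reads in this comparison, at −0.92. For 5 of the 13 the strand was not known, so no host could be sought. The 21 members of Gas5, Snhg1 and Eif4a2 held 19.2% of snoRNA reads in IL-15C VM cells and 34.4% in control VM cells. Without them the other 206 members still summed to −1.07 (−1.15 to −0.99). The 68 members with 100 or more reads over the 4 libraries summed to −1.58 and the 159 with fewer to −0.79.

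The sums also differed by the position of a row in its host. In the GENCODE annotation, the span of 81 members overlapped an exon of retained-intron transcripts only, 37 overlapped an exon of some other transcript and 104 overlapped no exon of a longer gene on the same strand. For IL-15C VM over control VM cells the sums were −1.59 (−1.68 to −1.50) for the first kind, −1.28 (−1.44 to −1.13) for the next and −0.95 (−1.08 to −0.82) for those with no exon. Among rows with no such overlap only 2 reached the limits for comparison and 1 of these was lower, so the calls rest almost wholly on rows that an annotated host transcript also covers. Which part of the reads came from such host transcripts was not tested. All rows of Gas5 and Eif4a2 and most rows of Snhg1 are of the first kind. The 21 members of these 3 hosts summed to −2.21 (−2.36 to −2.06), and the other 206 members to −1.07. The sums by position were not taken without these hosts, so position and host gene are not separated here.

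Of the 8 genes of the core proteins of snoRNA particles, 7 had ratios above 0 in IL-15C VM over control VM cells. Of all 12370 rows compared there, 5912 did. The box C/D core proteins Fbl, Nop56, Nop58 and Snu13 had log2 ratios of 0.10, 0.36, −0.03 and 0.68 in IL-15C VM over control VM cells, and 0 of 4 were called. The box H/ACA core proteins Dkc1 (dyskerin), Nhp2, Nop10 and Gar1 had 0.11, 0.83, 0.46 and 0.49, and 0 of 4 were called. The counting intervals of Nhp2 (0.75 to 0.90) and Snu13 (0.62 to 0.74) lie above 0 and below the 2-fold limit of a call. The box H/ACA core genes summed to 329.5 CPM in IL-15C VM cells and 248.4 in control VM cells, and the box C/D core genes to 656 and 550.0 CPM. Of 14 assembly factors 1 was higher, Pih1d1 of the R2TP chaperone complex, with 57.2 CPM in IL-15C VM cells and 21.7 in control VM cells (1.40, interval 1.29 to 1.51). Of 11 processing genes, such as the debranching enzyme gene Dbr1 and nuclear exosome subunits, 0 were called. Over all compared rows 8.6% were higher and 8.83% lower, so 1 call among 14 assembly factors does not stand out. None of these lists held a call in the other 3 comparisons.

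The list of Snhg and related genes holds non-coding host genes. Of 17 compared in IL-15C VM over control VM cells, 4 were lower (Snhg8 −1.24, Snhg17 −1.19, Snhg20 −1.42 and Dancr −2.04) and 1 was higher (Snhg3, 1.28), with a median of −0.97, where 8.83% of all compared rows were lower and 8.6% higher and their median was −0.04. Long non-coding rows as a class were nearer to the list, with 22.0% lower, 4.09% higher and a median of −0.73. In IL-15C naive over control naive cells 1 of 16 was higher (Zfas1, 1.14) and 0 lower, with a median of 0.48, where 4.95% of all rows were higher and 1.99% lower. Long non-coding rows there had 2.67% higher, 10.4% lower and a median of −0.44. In IL-15C VM over IL-15C naive cells 7 of 16 were lower (Snhg7, Snhg8, Snhg12, Snhg20, Gas5, Epb41l4aos and Dancr), with a median of −1.08, where 5.91% of all rows were lower. Of long non-coding rows 15.1% were lower, with a median of −0.49. In control VM over control naive cells 0 of 17 were called. Snhg genes carry snoRNAs in their introns, and several of their spliced RNAs are known to be degraded by a pathway coupled to translation.

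The summed ratios of 4 other classes of short RNA were also below 0 between the same libraries, while single rows went in both directions. Between IL-15C VM and control VM cells the summed log2 ratio was −0.57 for miRNA rows, −0.62 for snRNA rows, −0.26 for tRNA rows and −1.26 (−1.55 to −0.97) for 14 rows of guide RNAs, all of which are described as small Cajal body RNAs, relatives of the snoRNAs. The interval of the guide RNA sum overlaps that of the snoRNA sum, −1.37 (−1.44 to −1.30), but only 1 of the 14 rows reached the limits for comparison. In IL-15C naive over control naive cells the sums stood apart. There guide RNAs were at −0.76 (−0.99 to −0.54) and snoRNAs at −0.18 (−0.23 to −0.13). In IL-15C VM over control VM cells the 9 compared tRNA rows had a median of 0.03, with 5 above 0. Rpph1, the RNA of ribonuclease P, had 77 reads in IL-15C VM cells and 22 in control VM cells (1.78, interval 1.17 to 2.63), and Rmrp, the RNA of the related ribonuclease MRP, had 20 and 9 (1.06, interval 0.02 to 2.53). A list of 125 rows was also taken by name or biotype to stand for other small RNAs. It summed to 419 CPM in IL-15C VM cells, where snRNA rows summed to 11.8 and guide RNA rows to 3.31. Most of its level thus came from other rows, and whether these are short was not checked. Of its 23 compared rows, 3 were lower and 1 higher, with a median of −0.54. Of all compared rows 8.83% were lower and 8.6% higher, and 12.7% of the rows in the read range of the snoRNAs were lower. The miRNA, tRNA and guide RNA classes and the Rpph1 and Rmrp rows were chosen after their values were seen. Long non-coding rows as a whole stood at −0.61, and 22.0% of the 635 compared were lower. Markers of other cells also differed between these libraries. In IL-15C VM over control VM cells 4 of 5 B cell, 4 of 5 dendritic cell, 2 of 3 macrophage and granulocyte and 2 of 3 erythroid and platelet markers were lower, and 1 dendritic cell and 1 macrophage and granulocyte marker were higher. The dendritic cell markers summed to 87.9 CPM in IL-15C VM cells, 8.34 in IL-15C naive cells, 201 in control VM cells and 5.01 in control naive cells, and the B cell markers to 609, 562, 644 and 487 CPM. Macrophage and granulocyte markers summed to 12.5, 1.76, 10.8 and 3.13 CPM and erythroid and platelet markers to 1.49, 1.85, 5.16 and 2.30 CPM in the same order. The B cell sum did not follow most of its markers. Their median log2 ratio was −2.22 in IL-15C VM over control VM cells and 2.11 in control VM over control naive cells. The part of these markers in the snoRNA difference was not tested.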

How the data were processed

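Poly(A) RNA of 4 sorted CD8 T cell samples was sequenced as pairs. Per the submitters' processing notes, the genome build was mm10 and the tools included HISAT2 2.1.0, StringTie 2.1.3b and SAMtools 1.9, after FastQC 0.11.7 and Trimmomatic 0.38 or in another order that is not stated. Strand use in counting and the annotation version are not given in the sources used here. The deposited table gives, per the file headers, a whole-number read count and a TPM value for each gene and library. The submitters' notes also list edgeR and R 4.2.2. The table holds 18 more per-sample columns, which were left aside. Members and gene lists were chosen with earlier results of these data known. The class by description was added after the data were seen.

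Counts of all 15466 rows were scaled with TMM (edgeR 4.0.16, R 4.3.3), 1 read being 0.0197 to 0.0233 CPM. A prior count of 2 was added before log2 ratios were taken. The 95% interval of a ratio is the Clopper-Pearson interval of the pair of raw counts. It covers counting error alone, as the reads carry no molecular identifiers and need not be independent molecules. With 1 library per group no p-value was computed. The ratio and call rule was tested on simulated data. RefSeq for GRCm38.p6 matched all 227 IDs and gave positions. GENCODE M21 gave sequences, exons and hosts (the gene on the same strand that spans the row, preferring one in the table). Of the members, 136 have the same span in both, and 25 rows share their counts in all 4 libraries with another snoRNA row. Members named are the 6 with most reads, the 6 with the highest mean TPM in each name class, the 6 with the largest called ratios per comparison, classical members, and hosts of 3 or more members of at least 20 reads, and not all so chosen are given. Alternatives were other scalings (DESeq2 1.42.0 size factors, total counts), filters, priors, thresholds, the deposited TPM with 0.1 added, and subsets of rows. Some host genes are not reported here.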

Additional observations from a re-analysis of the deposited data

Results flagged for a closer look

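For 9 of the reported host genes that hold 3 or more snoRNA rows, the IL-15C library was lower than the control library in VM cells and higher in naive cells. Each response rests on 1 library a group, and the difference between the responses was not tested. Gas5 had a log2 ratio of −0.98 in VM cells and 0.48 in naive cells, and Snhg1 had −0.27 and 0.73. Among ribosomal protein genes, Rpl4 had −0.24 in VM cells and 0.38 in naive cells, Rpl13a −0.26 and 0.29, Rpl17 −0.44 and 0.25, Rpl23a −0.24 and 0.33, Rpl5 −0.65 and 0.26, and Rpsa, which encodes a small subunit protein, −0.054 and 0.54. Rack1, a scaffold protein of the small subunit, had −0.19 in VM cells and 0.16 in naive cells. None of the 9 was called in either of these comparisons.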

How the results depend on the processing

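Of 196 values recomputed under other settings 149 were the same by a fixed rule. Counts had to stay within 1.5 times the main count. Other values had to stay within the half-width of the counting interval of the class sum or share. Many of the 149 were counts of 0 under both settings, and a changed threshold leaves a median as it was. Of the medians of at least 1 in size, 0 changed sign. Smaller medians did, such as that of control VM over control naive cells, from 0.04 to −0.018 with TPM. No paired analysis was possible because each group has 1 library, and for the same reason no library could be left out. Total counts moved the median of all rows to −0.16 in IL-15C VM over control VM cells, and the deposited TPM moved it to −0.18 there and to −0.21 in IL-15C naive over control naive cells.

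In IL-15C VM over control VM cells, the 25 members called lower were 14 with at least 100 reads, 38 by 2-fold without the interval, 41 with the deposited TPM and 1 without rows that overlap an exon, a setting that leaves 2 rows. The median of −1.69 was −0.78 with no filter, −1.83 at 100 reads, −1.76 with a prior of 0.5, −1.57 with a prior of 5, −1.94 with TPM, −1.31 without exon overlap and −1.26 at 20 reads without the CPM limit. For Snord rows it was −0.81 with no filter, −1.94 at 100 reads and −1.83 by description, and for Snora rows −0.88 with no filter. The median of member minus host was −1.35 with a prior of 0.5 and −1.06 with a prior of 5.

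In IL-15C naive over control naive cells, the deposited TPM gave 4 lower. The median was −0.23 with total counts, −0.11 with no filter, −0.40 with TPM and −0.22 without exon overlap. For Snord rows it was −0.28 with total counts and −0.032 with no filter, and for Snora rows −0.27 by description.

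In IL-15C VM over IL-15C naive cells, the 20 called lower were 12 at 100 reads and 2 without exon overlap. The median was −1.59 with total counts, −0.59 with no filter, −1.76 at 100 reads, −1.44 with a prior of 5, −1.31 without exon overlap and −1.16 without the CPM limit. For Snord rows it was −0.72 with no filter, −1.35 at 100 reads and −1.65 by description, and for Snora rows −0.76 with no filter. Member minus host was −0.69 with a prior of 5.

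For control VM over control naive cells the median was −0.018 with TPM and −0.37 without exon overlap. For Snord rows it was 0.05 with no filter and 0.067 by description, and for Snora rows 0.061 with no filter.

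Without the row with most reads, snoRNA rows took 0.00512% of reads in IL-15C VM cells, 0.0121% in IL-15C naive cells, 0.0142% in control VM cells and 0.0142% in control naive cells. The settings at 20 reads and by description were chosen after the data were seen. Why a value moved was not tested, other than that some settings compare fewer rows.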
